A study of Mus musculus with 3 samples.

Results

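The genes described here are the antioxidant genes that work around the transcription factor NRF2, glutathione and thioredoxin. They were chosen by gene symbol, from a list made with earlier results of these data known. All 37 listed symbols were found among the 46078 genes of the table. The study measured RNA of RAW 264.7 cells, a mouse macrophage line from an ascites tumour induced by Abelson murine leukemia virus, and asked what gold nanocages do in cells damaged by hydroxyurea (HU). Each of the 3 conditions is 1 library, so no difference below has a replicate check. The control library comes from cells given neither agent, as far as the labels say. The HU library comes from cells given 0.5 mM hydroxyurea for 12 hours, and the GNC library from cells given the same hydroxyurea together with gold nanocages for the same time. All 3 share the cell line, its range of passages and its medium with serum and antibiotics. The nanocages' dose is not given in the sources used here, nor is a vehicle for the control. The 3 libraries hold 14990564, 20057329 and 18644333 counted reads in the order control, HU and GNC, which is the order of all triplets below. Of 14 macrophage markers, 11 had a mean of at least 1 FPKM (fragments per kilobase of exon per 1000000 counted reads), led by Lyz2. Below that mean, Mrc1 and Marco had 0 reads in every library and Fcgr3 had 1, 1 and 7. None of the 37 markers of lymphocytes, fibroblasts, epithelium, endothelium, granulocytes, mast cells or red cells reached that mean.

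NRF2, encoded by Nfe2l2, is held in the cytoplasm and marked for degradation by KEAP1. When oxidants or electrophiles modify KEAP1, NRF2 accumulates, pairs with a small MAF protein and binds antioxidant response elements, where the repressor BACH1 competes with it. Its targets make glutathione, reduce thioredoxin and repair oxidised peroxiredoxins, and other targets supply the NADPH on which both systems run. Macrophages rely on these systems because their own respiratory burst makes superoxide and hydrogen peroxide.

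Many NRF2 targets carry the element in their promoters, so the matches are printed here before the values. The core of the antioxidant response element, TGACNNNGC, or GCNNNGTCA on the other strand, was searched in RefSeq promoter windows of 300 bases (250 before the transcript start and 50 after) on GRCm38.p6. Windows exist for 33 of the 37 genes, with more than 1 window for some, and 12 of the 33 (36.4%) hold a match in any of them. Over all windows in the table the share is 12.4% of 32851, and over all gene symbols it is 14.0% of 27025. Abcc1, Gclc, Gsr and Prdx6 have no window. The genes were listed for their known place in this pathway, so the share describes the list. The matches shown are those of the 4 members called higher in HU that hold one, then of Nfe2l2, Maff, Prdx1 and G6pdx, which were not, with 10 bases on each side and the match in capitals.
Srxn1, chr2:152105542-152105570, plus strand, bases 29 to 37 after the start: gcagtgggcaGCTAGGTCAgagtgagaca
Gclm, chr3:122245413-122245441, plus strand, bases -134 to -126: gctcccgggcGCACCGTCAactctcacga
Txnrd1, chr10:82859104-82859132, plus strand, bases -92 to -84 of one of its starts: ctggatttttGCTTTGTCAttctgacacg
Me1, chr9:86695902-86695930, minus strand, bases -6 to 3: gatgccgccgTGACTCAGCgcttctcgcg
Nfe2l2, chr2:75704885-75704913, minus strand, bases -240 to -232: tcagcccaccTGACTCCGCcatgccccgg
Maff, chr15:79346499-79346527, plus strand, bases -112 to -104: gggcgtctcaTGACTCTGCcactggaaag
Prdx1, chr4:116685456-116685484, plus strand, bases -133 to -125: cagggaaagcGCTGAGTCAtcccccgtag
G6pdx, chrX:74428919-74428947, minus strand, bases -57 to -49: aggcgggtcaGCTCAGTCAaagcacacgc

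The matches of Me1 and Prdx1 also hold TGANTCA, a pattern that includes the core bound by AP-1. Anywhere in the window, TGANTCA is present in 7.81% of all windows, a share of whole windows and not of matches. Of the 5 genes called higher in HU that have a window, 4 hold a match, as do 8 of the other 28. Slc7a11 is the one without. Both counts describe a list made for this pathway, and the difference between them was not tested. Me1, among those 4, was called narrowly, and genes with several windows had more places for a match. A match is a string of letters and not evidence of binding, and no match says only that the letters are absent from this window. The whole stretch of 250 bases before the start of Gclm, chr3:122245307-122245556 on the plus strand, shows the setting of one such match, again in capitals.
Gclm: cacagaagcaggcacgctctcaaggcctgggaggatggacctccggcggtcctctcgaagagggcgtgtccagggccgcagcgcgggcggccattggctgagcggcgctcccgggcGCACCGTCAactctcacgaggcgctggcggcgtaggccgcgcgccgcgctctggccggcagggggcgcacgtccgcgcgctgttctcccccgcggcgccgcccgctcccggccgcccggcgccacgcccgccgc

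In HU against control, 6 of these genes were called higher. Slc7a11, Gclc and Gclm take up cystine and make glutathione, Srxn1 and Txnrd1 serve some of the peroxiredoxins, and Me1 makes NADPH. Ratios of the abundant peroxidases Gpx1 and Prdx1 and of the dismutase Sod1 lay within 0.9 to 1.1. A gene was called higher or lower where its ratio of CPM (reads per 1000000 counted reads) was at least 1.2-fold and the exact 95% interval of that ratio from the read counts lay wholly beyond 1. The intervals cover counting error only, and reads are not independent molecules where no molecular identifiers were used. In a bulk library, a change in the RNA of each cell and a change in which cells are present cannot be told apart. Of 35 genes with a mean of at least 1 FPKM in the pair of libraries, 6 were called higher and 0 lower. Over all 10842 genes passing the same filter, 9.15% were called higher and 8.47% lower. Without a minimum fold, 15 of the 35 had an interval above 1 and 5 below, beside 18.6% and 20.1% of all genes. An interval excludes 1 more easily for a gene with more reads. The shares of all genes, here and below, are not matched for read depth. The median log2 CPM ratio of the 35 was 0.10, against -0.01 for all genes. The list was not blind to these data, so its comparison with all genes describes the list only.

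With gold nanocages added to HU, Osgin1, Maff and Bach1 had ratios of at least 1.2-fold, and of these 3 the interval lay beyond 1 for Bach1 alone. GNC against HU thus gave 1 gene called higher, the repressor Bach1, and 0 lower, beside 1.81% and 1.39% of 10886 genes. Intervals lay above 1 for 9 of 35 genes and below 1 for 2, beside 8.32% and 7.8% of all genes. The median log2 CPM ratio was 0.03, against 0.00 for all genes. In GNC against control 9 genes were called higher and 0 lower, beside 9.87% and 8.51% of 10849 genes. Those 9 were Srxn1, Osgin1, Slc7a11, Gclc, Gclm, Txnrd1, Maff, Nfe2l2 and Gsr. Intervals there lay above 1 for 18 genes and below 1 for 4, beside 19.5% and 20.1%, and the median log2 CPM ratio was 0.13, against -0.01 for all genes. The contrasts share libraries, so they are not independent of each other.

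**Figure D1:**
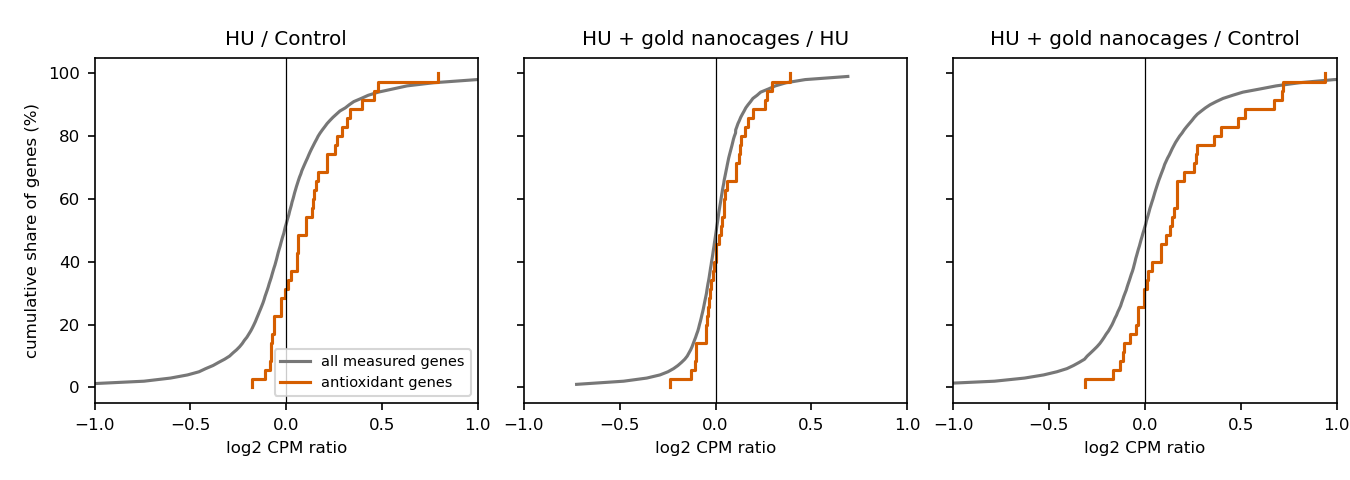
Cumulative share of genes (vertical axis, percent) by log2 CPM ratio (horizontal axis) for each pair of libraries, with all measured genes in grey and the 35 measured antioxidant genes in orange. The orange line lies to the right of the grey line over most of its length in both panels against control, with medians of 0.10 and 0.13, and close to it for gold nanocages with HU against HU, with a median of 0.03.

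The glutathione branch begins with cystine uptake. Slc7a11 encodes the light chain of the cystine and glutamate exchanger xCT, and it lies on chromosome 3 at 49892526 to 50443614 (mm10, minus strand, GENCODE M21). It had 937, 1721 and 1913 reads in control, HU and GNC, or 4.49, 6.16 and 7.37 FPKM. The level was lowest in control and highest in GNC. Its CPM ratio was 1.37 in HU against control (95% counting interval 1.27 to 1.49), 1.196 in GNC against HU (1.12 to 1.28) and 1.64 in GNC against control (1.52 to 1.78). The second ratio lay just under the 1.2-fold minimum. Slc3a2, the heavy chain that xCT shares with other carriers and named here after its values were seen, stood at 121.0, 108.3 and 107.7 FPKM, with a ratio of 0.895 in HU against control (0.863 to 0.928).

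Gclc and Gclm encode the catalytic and the modifier subunit of glutamate-cysteine ligase, the rate-limiting enzyme of glutathione synthesis. Gclc (chromosome 9, 77754535 to 77794485) had 1673, 3123 and 3319 reads, or 32.6, 45.5 and 52.0 FPKM. Its ratio was 1.395 in HU against control (1.314 to 1.481), 1.143 in GNC against HU (1.088 to 1.201) and 1.595 in GNC against control (1.504 to 1.693). Gclm (chromosome 3, 122245557 to 122270732) followed the same order at a lower level, with 13.2, 17.3 and 18.9 FPKM from 1243, 2185 and 2222 reads. Its ratios were 1.31 (1.23 to 1.41), 1.09 (1.03 to 1.16) and 1.44 (1.34 to 1.54) in the same contrasts. The level of Gclc was 2.47 times that of Gclm in control, 2.63 times in HU and 2.75 times in GNC, per kilobase. Gclm shares up to 296 exonic bases with each of 2 other annotated genes, which together had 103 reads over all 3 libraries.

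Gss, the synthetase that completes glutathione, was not called in any contrast. It had 6.83, 7.57 and 7.02 FPKM from 606, 898 and 774 reads. Its exons overlap those of Acss2 on the other strand. Its intervals included 1 in all 3 contrasts, at ratios of 1.11 (0.998 to 1.23), 0.927 (0.841 to 1.02) and 1.03 (0.922 to 1.144). Summed over Slc7a11, Gclc, Gclm and Gss, the level was 57.1, 76.5 and 85.3 FPKM, and the ratio of summed reads in HU against control was 1.33 (1.28 to 1.38).

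**Figure D2:**
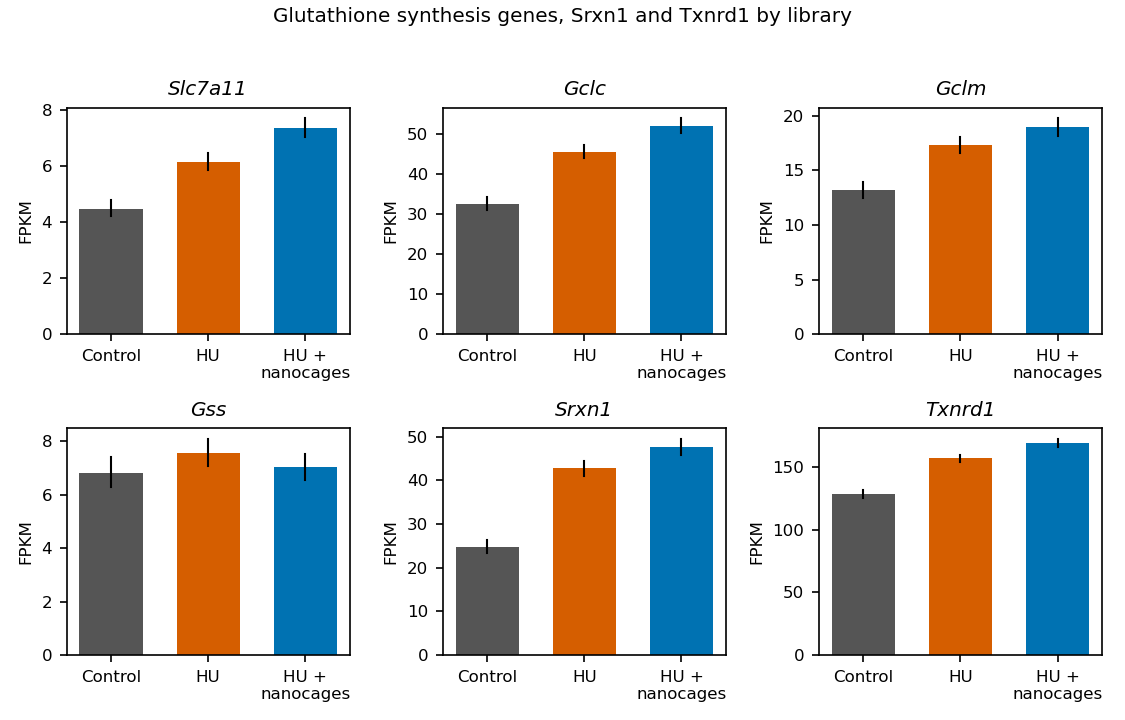
FPKM (vertical axes, starting at 0) of Slc7a11, Gclc, Gclm, Gss, Srxn1 and Txnrd1 in control (grey), HU (orange) and HU with gold nanocages (blue), 1 library per bar. Black lines are exact 95% Poisson intervals of the read count scaled to FPKM, and all panels but that of Gss show control lowest and HU with gold nanocages highest.

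Of the enzymes that recycle and use glutathione, Gsr alone was called, and only in GNC against control. Gsr, glutathione reductase, which uses NADPH, had 31.6, 34.8 and 38.1 FPKM from 1306, 1922 and 1958 reads. Its ratios were 1.10 in HU against control (1.02 to 1.18), 1.10 in GNC against HU (1.03 to 1.17) and 1.205 in GNC against control (1.12 to 1.29). The last was lost at 1.199 with a pseudocount of 1 FPKM. Gpx1, the cytosolic glutathione peroxidase, was the most abundant member in control at 283.4 FPKM, and stood at 268.0 in HU and 262.0 in GNC. Its ratio was 0.946 in HU against control (0.915 to 0.978) and 0.924 in GNC against control (0.893 to 0.957), both below 1 by interval and short of a call. Gpx4, the peroxidase that protects membrane lipids, stood at 36.6, 38.0 and 36.9 FPKM, with intervals that included 1 throughout.

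Glrx, the cytosolic glutaredoxin, had 19.1, 22.7 and 21.9 FPKM, with a ratio of 1.19 in HU against control (1.048 to 1.36), just short of a call. Abcc1, which exports glutathione conjugates, had 26.6, 25.1 and 25.9 FPKM and a ratio of 0.947 (0.912 to 0.983). The glutathione transferases of the list had few counted reads, and no source used here says how reads shared between similar genes were counted. Gstm1 had 26, 33 and 26 reads, and Gstp1 39, 65 and 68, and their intervals included 1 in every contrast (Gstp1 in GNC against control 1.402, 0.932 to 2.13). Mgst1, a microsomal transferase, had 0 reads in all 3 libraries, which allows up to 3 reads, or 0.200, 0.150 and 0.161 CPM. In total the branch had 3 of 11 measured genes called higher in HU, 0 of 11 in GNC against HU and 4 of 11 in GNC against control, with none lower. The shares called higher among all genes were 9.15%, 1.81% and 9.87% in that order.

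The thioredoxin branch held the largest ratio of the list in both contrasts with control. Srxn1 encodes sulfiredoxin, which returns over-oxidised peroxiredoxins to the active form, and lies on chromosome 2 at 152105516 to 152111376. It had 1045, 2418 and 2498 reads, or 24.7, 42.8 and 47.5 FPKM. Its ratio was 1.73 in HU against control (1.61 to 1.86), a value that 318 of the 10842 measured genes exceeded. It was 1.11 in GNC against HU (1.051 to 1.18) and 1.92 in GNC against control (1.79 to 2.07).

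Txnrd1, the cytosolic thioredoxin reductase, is a selenoprotein that passes electrons from NADPH to thioredoxin. It lies on chromosome 10 at 82833951 to 82897712 and was among the most deeply read members, with 6567, 10763 and 10772 reads, or 128.2, 157.0 and 169.1 FPKM. Its ratio was 1.22 in HU against control (1.19 to 1.26), 1.08 in GNC against HU (1.048 to 1.11) and 1.32 in GNC against control (1.28 to 1.36). The mitochondrial reductase Txnrd2 was at 9.81, 9.63 and 9.29 FPKM, and its intervals included 1 in every contrast. Txn1, the thioredoxin that both peroxiredoxins and ribonucleotide reductase can draw on, had 248.6, 267.5 and 263.4 FPKM, with a ratio of 1.08 in HU against control (1.03 to 1.12).

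None of the peroxiredoxins, a family of abundant thiol peroxidases, was called in any contrast. Of all genes, 9.15% were called higher and 8.47% lower in HU against control. The shares were 1.81% and 1.39% in GNC against HU, and 9.87% and 8.51% in GNC against control. Prdx1, the major cytosolic form, had 186.2, 175.7 and 181.6 FPKM from 8493, 10725 and 10305 reads. Its ratio was 0.944 in HU against control (0.917 to 0.971). Prdx2, also cytosolic, had 60.7, 56.1 and 56.3 FPKM and a ratio of 0.926 (0.880 to 0.974). Prdx3, the mitochondrial form, had 84.5, 84.0 and 91.3 FPKM and was above 1 by its interval in GNC against HU (1.09, 1.03 to 1.15).

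Prdx4, the form of the endoplasmic reticulum, had 49.8, 47.6 and 44.3 FPKM and a ratio of 0.890 in GNC against control (0.831 to 0.953). Prdx6, which reduces phospholipid peroxides, had 39.9, 39.1 and 36.4 FPKM and a ratio of 0.914 (0.869 to 0.961) in that contrast. Prdx5 was lowest at 34.3, 32.8 and 33.2 FPKM, with intervals that included 1. The order of levels from Prdx1 through Prdx3, Prdx2, Prdx4 and Prdx6 to Prdx5 was the same in all 3 libraries. Summed over the 6 genes the level was 455.4, 435.4 and 443.2 FPKM, and the summed reads had a ratio of 0.954 in HU against control (0.936 to 0.972). Exons of Prdx2 overlap those of Junb and Rnaseh2a and exons of Prdx5 those of Trmt112, all on the other strand, and no source used here gives the strand setting of the counting. Of 10 genes in the branch, 2 were called higher in HU and in GNC against control, beside 9.15% and 9.87% of all genes, and none in GNC against HU, beside 1.81%.

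In the NADPH branch 1 of 4 genes was called higher in HU against control, beside 9.15% of all genes, and 3 had an interval above 1, beside 18.6%. G6pdx, glucose-6-phosphate dehydrogenase, which opens the pentose phosphate pathway, had 115.7, 124.2 and 126.8 FPKM. Its ratio was 1.07 in HU against control (1.04 to 1.11) and 1.10 in GNC against control (1.06 to 1.136). Pgd, the next NADPH-producing enzyme of that pathway, had 81.7, 91.6 and 91.9 FPKM, with a ratio of 1.12 in both contrasts with control (1.09 to 1.15 in HU). Taldo1, transaldolase of the non-oxidative arm, was at 99.7, 100.3 and 99.5 FPKM, with intervals that included 1 throughout.

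Me1, the cytosolic malic enzyme, was the 1 gene of the branch that was called, at 7.80, 9.38 and 8.60 FPKM from 450, 724 and 617 reads. It was highest in HU. Its ratio was 1.202 in HU against control (1.07 to 1.36) and passed the fold narrowly, a call lost at 1.18 with a pseudocount of 1 FPKM, while in GNC against control it was 1.10 (0.975 to 1.25). Me1 shares 30 exonic bases with a gene that had 0 reads, and G6pdx shares 418 with Ikbkg. In GNC against HU none of the 4 genes had an interval that excluded 1, beside 8.32% of all genes above 1 and 7.8% below.

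None of the 5 regulators was called in HU against control, beside 9.15% of all genes called higher and 8.47% lower. In GNC against HU 1 was called higher, beside 1.81%, and in GNC against control 2, beside 9.87%. Nfe2l2 itself, on chromosome 2 at 75675513 to 75704641, had 1902, 2950 and 2855 reads, or 33.4, 38.8 and 40.3 FPKM. Its ratio was 1.16 in HU against control (1.09 to 1.23) and 1.04 in GNC against HU (0.989 to 1.10). In GNC against control it was 1.207 (1.138 to 1.28). Only the last was called, and it passed the 1.2-fold minimum narrowly (1.203 with median-of-ratios size factors). The interval in HU against control also lay above 1. Keap1 was at 21.2, 23.3 and 23.8 FPKM, with a ratio of 1.10 in HU against control (1.03 to 1.17) and 1.12 in GNC against control (1.05 to 1.201). NRF2 is controlled mainly through its protein, which RNA does not measure.

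The small MAF genes encode the partners of NRF2 on DNA. Mafg, whose exons overlap those of Sirt7, had 33.9, 37.8 and 37.7 FPKM and a ratio of 1.12 in HU against control (1.06 to 1.17). Maff was scarcer, at 111, 155 and 177 reads or 3.49, 3.65 and 4.48 FPKM. Its ratio was 1.04 in HU against control (0.813 to 1.34) and 1.28 in GNC against control (1.006 to 1.64), a call whose interval begins close to 1. It was lost with a 99% interval, and with a minimum mean of 5 FPKM.

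Bach1, the repressor that competes with NRF2, had its lowest level in HU. It lies on chromosome 16 at 87698945 to 87733346 and had 565, 667 and 746 reads, or 6.10, 5.38 and 6.48 FPKM. Its ratio was 0.882 in HU against control (0.788 to 0.989) and 1.203 in GNC against HU (1.08 to 1.34). In GNC against control it was 1.06 (0.9504 to 1.19). The call in GNC against HU was lost under each of the other library scalings, since the ratio sits at the 1.2-fold minimum (1.199 with median-of-ratios size factors), and it was 1.172 with a pseudocount of 1 FPKM.

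**Figure D3:**
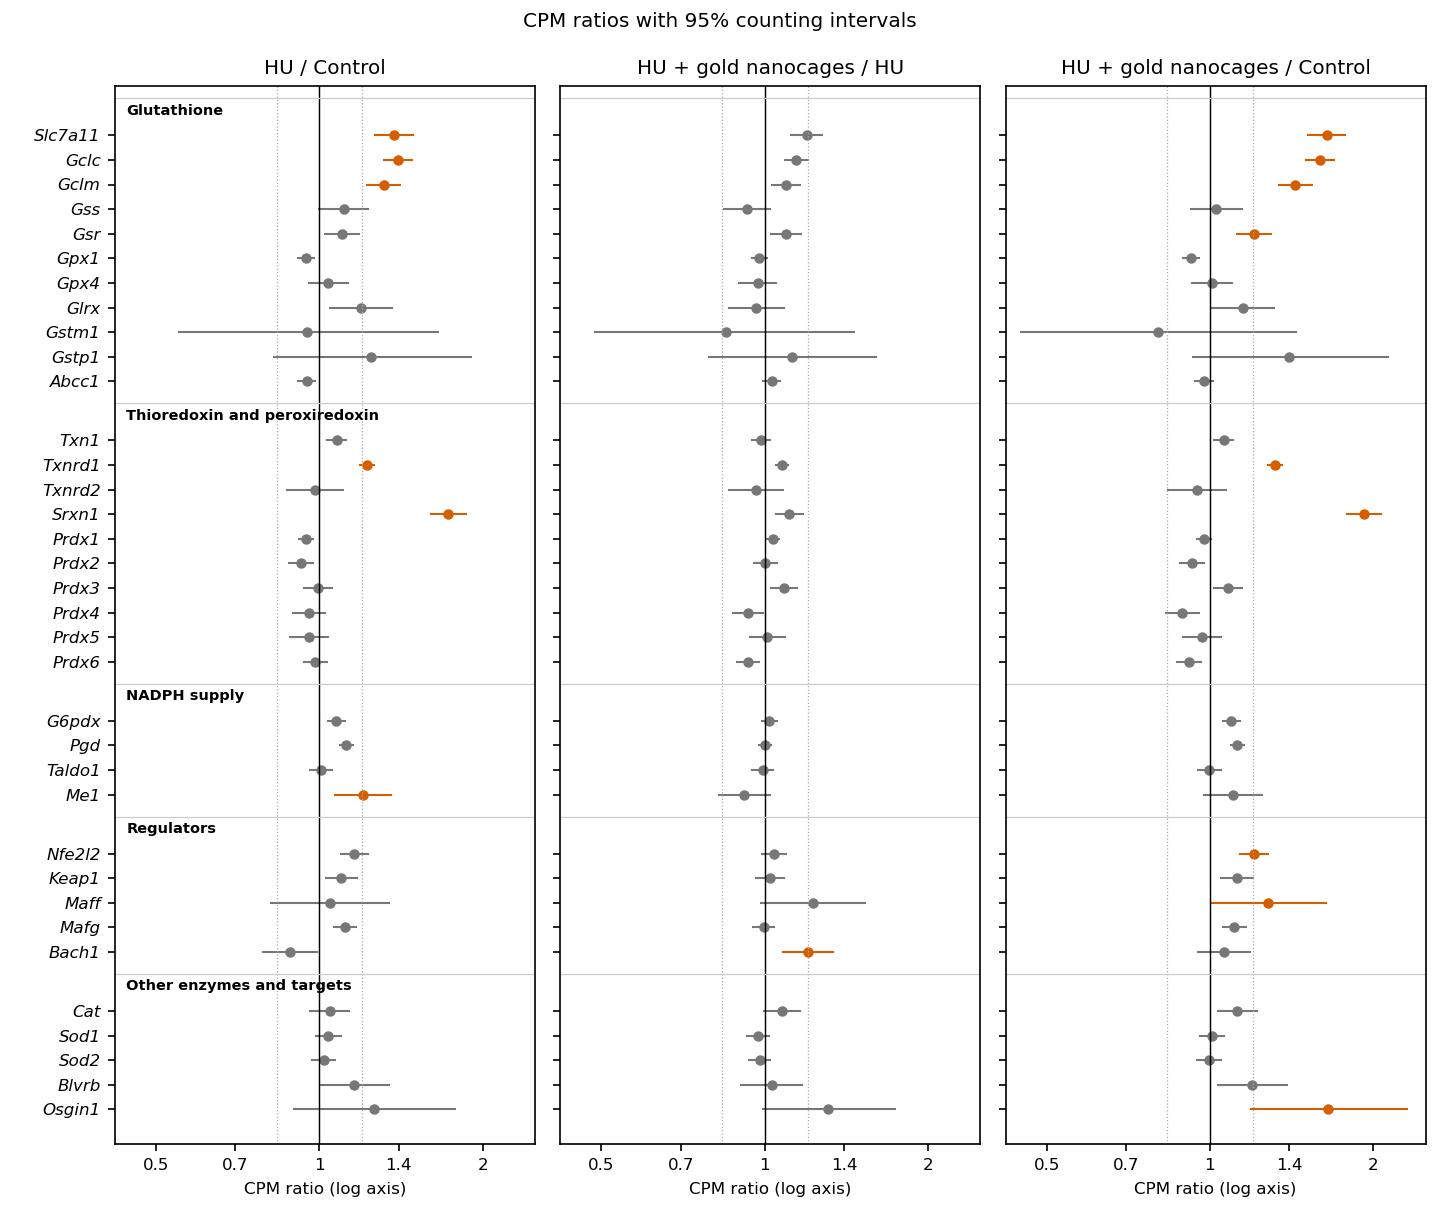
CPM ratios (points, log axis) with exact 95% counting intervals (lines) of the 35 measured genes by branch, for HU against control, HU with gold nanocages against HU, and HU with gold nanocages against control. Orange marks called genes, the solid line is a ratio of 1 and the dotted lines mark 1.2-fold either way. Slc7a11, Gclc, Gclm, Srxn1 and Txnrd1 are orange in both panels against control, and Bach1 is the orange gene of the panel against HU.

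The remaining members are enzymes that act on superoxide, peroxide, quinones and biliverdin, with 1 further NRF2 target. Sod1, the cytosolic superoxide dismutase, stood at 262.9, 273.1 and 265.5 FPKM, and Sod2, the mitochondrial one, at 49.9, 50.8 and 49.8 FPKM. Intervals of both included 1 in every contrast. Cat, catalase, had 24.7, 25.8 and 27.8 FPKM, with a ratio of 1.12 in GNC against control (1.03 to 1.22). Blvrb, biliverdin reductase B, had 14.5, 16.9 and 17.4 FPKM, with ratios of 1.16 in HU against control (1.00 to 1.34) and 1.196 in GNC against control (1.03 to 1.39).

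Osgin1, a stress-induced growth inhibitor and NRF2 target on chromosome 8 at 119434124 to 119446256, was scarce at 57, 96 and 117 reads or 1.42, 1.79 and 2.35 FPKM. Its ratio was 1.26 in HU against control (0.898 to 1.78) and 1.31 in GNC against HU (0.992 to 1.74). Neither interval excluded 1, but that of GNC against control did, at 1.65 (1.19 to 2.31). That call was lost with a minimum mean of 5 FPKM. Nqo1, the quinone reductase often used to report NRF2 activity, was nearly absent, with 2, 4 and 3 reads. Its ratio of 1.49 in HU against control had a counting interval of 0.214 to 16.5, so a difference was not detectable at this depth.

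**Figure D4:**
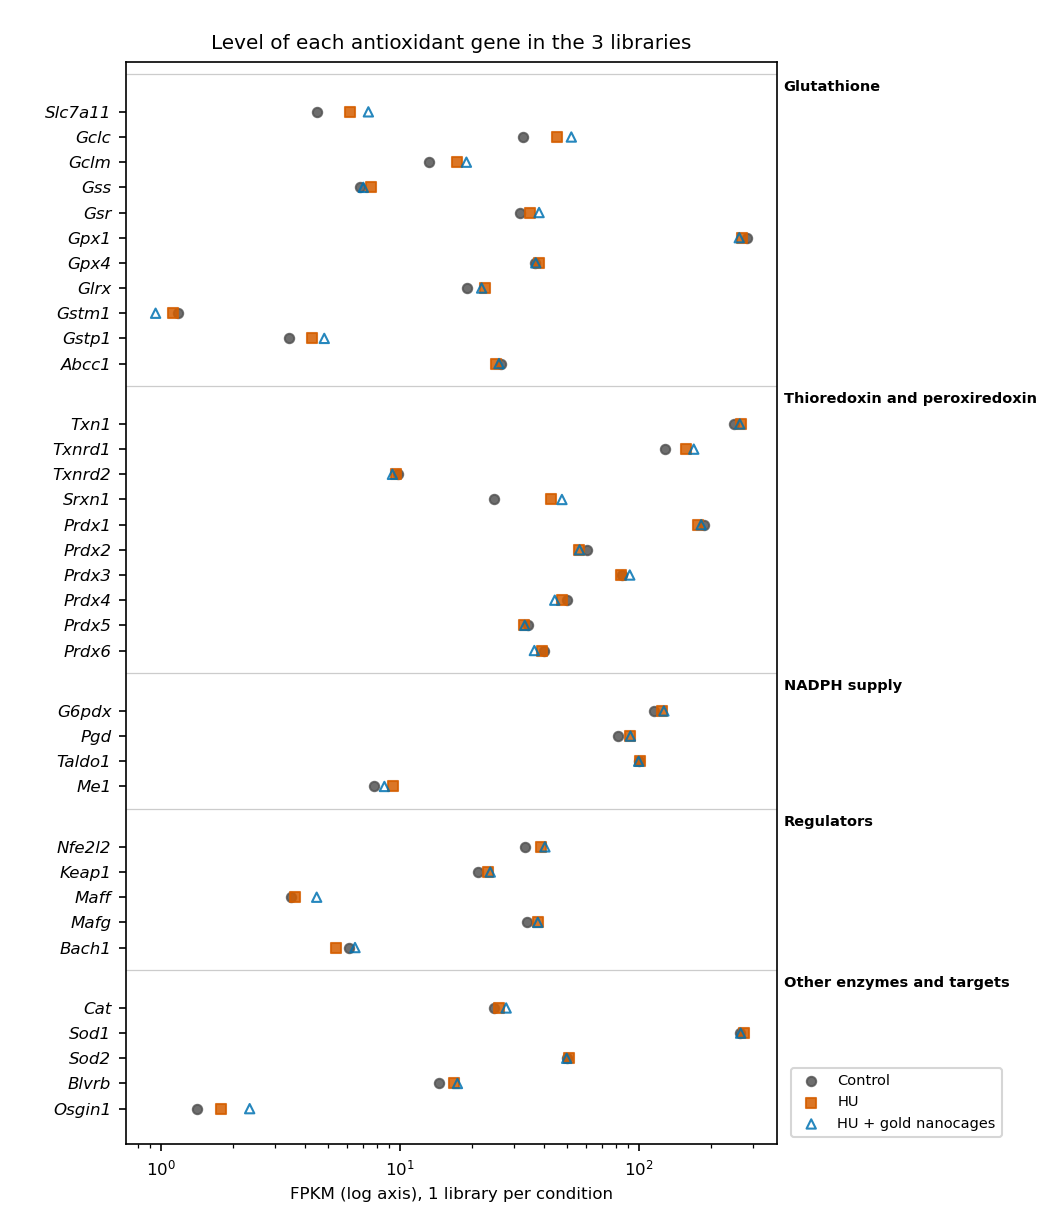
FPKM (log axis) of the 35 measured genes in control (grey circles), HU (orange squares) and HU with gold nanocages (blue open triangles), 1 library each, by branch. Levels run from about 1 FPKM for Gstm1 to 283.4 FPKM for Gpx1 in control, and for most genes the 3 symbols lie close together.

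Levels thus ranged widely, and 6 members had a mean of at least 100 FPKM. These were Gpx1, Sod1, Txn1, Prdx1, Txnrd1 and G6pdx. Of them Txnrd1 alone was called, higher in HU and in GNC against control, beside 9.15% and 9.87% of all genes. Together the 37 genes took 0.529% of reads in control, 0.563% in HU and 0.577% in GNC. By branch, the summed reads in HU against control had ratios of 1.06 for glutathione (1.04 to 1.08), 1.054 for thioredoxin and peroxiredoxin (1.04 to 1.07), 1.09 for NADPH supply (1.07 to 1.11), 1.10 for the regulators (1.07 to 1.138) and 1.04 for the remaining enzymes (1.006 to 1.07). Median ratios over genes differed from the sums most in the thioredoxin branch, at 0.982, where 7 of 10 genes lay below 1.

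A second list held 105 further genes of these pathways. Of 72 measured, 6 were called higher and 3 lower in HU against control, beside 9.15% and 8.47% of all genes, so the count of higher genes was near that background. The median log2 CPM ratio was 0.00. The genes higher included Sesn2, Ephx1, Txnrd3, Hmox1 and Rbx1, and the genes lower were Chac1, Txnip and Cbr1. Sesn2, a p53 target that also limits mTORC1 signalling, had 20.8, 82.7 and 83.9 FPKM and a ratio of 3.98 (3.73 to 4.25). Hmox1, heme oxygenase, a target held down by BACH1, had 65.04, 96.8 and 126.7 FPKM from 2107, 4196 and 5105 reads.

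Hmox1 was called in every contrast. Its ratio was 1.49 in HU against control (1.41 to 1.57), 1.31 in GNC against HU (1.26 to 1.36) and 1.95 in GNC against control (1.85 to 2.05). Txnip, which binds and inhibits thioredoxin and overlaps an annotated antisense gene, had 144.5, 101.5 and 106.0 FPKM and was 1.42-fold lower in HU than in control (1.38 to 1.47). Chac1, which degrades glutathione, had 33.1, 14.7 and 13.4 FPKM and was 2.26-fold lower (2.02 to 2.54). Cbr1, a carbonyl reductase, was 1.24-fold lower (1.06 to 1.45), and Rbx1, a RING subunit of the ligase that marks NRF2, was 1.22-fold higher (1.13 to 1.32). Among genes with a mean of at least 5 FPKM and an interval beyond 1, Mthfd1 and Mafk were next highest at ratios of 1.15 and 1.13, and Htatip2 and Ugdh next lowest at 0.859 and 0.863, all short of a call.

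In GNC against HU the second list had 2 of 72 genes called higher and 0 lower, beside 1.81% and 1.39% of all genes. Beside Hmox1 this was H6pd, which makes NADPH in the endoplasmic reticulum, at 5.07, 5.68 and 7.18 FPKM and a ratio of 1.27 (1.13 to 1.41). Among genes within the same limits of level and interval, Cul3, the scaffold of the KEAP1 ligase, followed at 1.09 (1.03 to 1.15), with Osgin2 at 1.08 and Esd at 1.06. The lowest of these genes were Akr1b3 (0.922) and the ferritin light chain gene Ftl1 (0.927), which has many processed copies that could share its reads, with Rbx1 at 0.929 and Mthfd1 at 0.954. In GNC against control 6 were called higher and 3 lower, beside 9.87% and 8.51% of all genes. Sesn2 (4.03), Hmox1 and H6pd (1.42, 1.25 to 1.61) led the genes within those limits, followed by Txnl1 at 1.15 and Rbx1 at 1.13, and Chac1 (0.406), Txnip (0.734) and Sesn1 (0.814) were the 3 lower, ahead of Nnt at 0.855 and Abcc4 at 0.885. Ephx1 and Txnrd3, with means below 5 FPKM, are named after their values were seen. Their ratios in HU against control were 1.91 (1.21 to 3.10) for Ephx1, from 27 to 69 reads, and 1.55 (1.23 to 1.95) for Txnrd3.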

How the data were processed

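RNA of 3 libraries was sequenced in paired ends, 1 per condition. The authors deposited 1 table with whole-number read counts per gene, not normalized, and FPKM values, which equal count over exonic size and summed count within 0.01 for 100% of genes in each library. The table also holds another kind of value the authors deposited, each gene's exonic length in bases. The submitters' processing notes list mm10 as build; the tools are SAMtools 0.1.18, HISAT2 2.0.1, cutadapt and bcl2fastq 2.17.1.14, beside DESeq and HTSeq 0.6.1, with no role or order. Settings, annotation and strandedness are not stated there, nor how reads shared with pseudogene copies were counted.

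The row with most reads stood for a symbol (2 members had more than 1 row). CPM ratios carry exact Clopper-Pearson 95% intervals from both counts (SciPy 1.17.1). Simulated Poisson counts checked their calculation only, since these hold the counting error that the intervals assume and no spread between replicates. The minimum was a mean of 1 FPKM. No test between conditions was possible. The members and lists were chosen with earlier results of these data known. Named genes were all members and, in the second list, up to 5 a direction with mean FPKM of at least 5 and an interval beyond 1. Gstp3 of the second list was not matched. A gene counted in the second list is not reported here by name. Alternatives used TMM library sizes (edgeR 4.0.16), median-of-ratios size factors (DESeq2 1.42.0), other filters, folds, intervals and pseudocounts. Coordinates are from GENCODE M21 and sequences from RefSeq, GRCm38.p6.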

Additional observations from a re-analysis of the deposited data

How the results depend on the processing

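In HU against control, the 6 genes called higher became 1 with a minimum of 1.5-fold, and 15 higher and 5 lower with an interval beyond 1 and no minimum fold. In GNC against HU, the 1 gene called became 0 with TMM library sizes, 0 with median-of-ratios size factors and 0 with 1.5-fold, and 9 higher and 2 lower with no minimum fold. In GNC against control, the 9 genes became 4 with 1.5-fold, and 18 higher and 4 lower with no minimum fold. Shares of all genes are given here only for the 1.2-fold rule and for no minimum fold. Counts under the other settings therefore have no background beside them. The other 82 values of counts and list medians, and all 147 values of branch medians and described genes, moved by no more than 1.5 times for counts, and for log2 ratios by no more than the gene's counting half-interval, or for a median the median half-interval of its genes. Against control, the same 6 and 9 genes were called under all 3 scalings. The scalings hardly differed, with TMM factors of 1.001, 0.998 and 1.001 in control, HU and GNC, so this is a weak check. Within those counts single calls changed. Me1 in HU against control was lost with a pseudocount of 1 FPKM (no interval used), which gave 5 genes. In GNC against HU that pseudocount replaced Bach1 by Osgin1 (1.201), and in GNC against control it replaced Gsr by Gstp1 (1.311). In GNC against control a 99% interval gave 8 genes, without Maff, and a minimum mean of 5 FPKM gave 7, without Maff and Osgin1. Leaving out the members whose exons overlap another gene, an alternative chosen after seeing the data, gave 4, 1 and 8 genes higher. The median log2 CPM ratio of the members ranged from 0.103 to 0.108 in HU against control, from 0.0177 to 0.0301 in GNC against HU and from 0.112 to 0.136 in GNC against control. No paired analysis was possible because each condition is 1 library. No replicate could be left out for the same reason. Depth limits Nqo1, Mgst1, Gstm1, Gstp1, Osgin1 and Maff.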
